A study of Gallus gallus with 2 samples.

Results

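The fatty acid binding protein genes FABP1 to FABP7 were examined in DT40, a B cell line of chicken. All 7 genes had at least 1 probe on the array, and together they were read by 13 of its 43603 probes and made up 7 of 5382 named genes. Probes were taken where their RefSeq accession, without its version, belonged to 1 of these symbols. Only 13060 of all probes carried a RefSeq accession, so any probe of these genes under another accession could not be named. The family was chosen from the measured signals of FABP5 on these arrays, so the FABP5 difference is given as a description.

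Both groups were H2A.Z double-knockout cells. H2A.Z, a variant of histone H2A, occupies a share of the nucleosomes. One group stably expressed FLAG-H2A.Z.1 and the other FLAG-H2A.Z-R80C, a cancer-associated mutant of it, and both were grown without tetracycline at 38 °C in medium with 10% fetal bovine serum and 1% chicken serum. Each group was 1 culture on 1 array, so no replicate error and no p-value could be had, and each difference describes 2 arrays. The sources used here do not say whether a culture was 1 clone. The comparison addressed how expression differed between cells with the mutant and cells with H2A.Z.1.

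Fatty acid binding proteins are small proteins of the cytoplasm that hold a fatty acid or another lipid in the cavity of a barrel-shaped fold. They carry lipids between membranes, to mitochondria and peroxisomes for oxidation, and to lipid receptors in the nucleus. In mammals each member is known for particular tissues: FABP1 for liver, FABP2 for intestine, FABP3 for heart and muscle, FABP4 for adipocytes and macrophages, FABP5 for epidermis, FABP6 for the ileum, where it binds bile acids, and FABP7 for the developing brain.

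The arrays were alike in quality. Of the non-control spots, 70.1% (H2A.Z.1) and 71.5% (R80C) were well above background, none was saturated, and the 75th percentile of the processed signal (spot brightness after background subtraction) was 1078 and 1055. The detection limit, taken as the lowest signal well above background, was 6.95 for H2A.Z.1 and 5.81 for R80C. It is a minimum, and some brighter spots were not well above background, such as an LPL probe at 9.29 on the H2A.Z.1 array. All 11 B cell markers with a probe were measured on both arrays, with differences between -0.19 and 0.29 (log2, R80C minus H2A.Z.1). No member spot carried an outlier or saturation flag. Local background at the member spots lay between 27 and 32.5 (H2A.Z.1) and between 25 and 30.5 (R80C). Because RNA came from whole cultures, a change in the number of expressing cells and a change in RNA per cell cannot be told apart.

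Of the 7 genes, 3 (FABP3, FABP4 and FABP6) were well above background on both arrays, 2 (FABP5 and FABP7) on the R80C array only, and 2 (FABP1 and FABP2) on neither. No member was above background on the H2A.Z.1 array only, a state in which 0.0929% of named genes had a bound of at least 2-fold. Over all named genes, 80.4% were measured on both arrays, 1.88% on the R80C array only, 0.446% on the H2A.Z.1 array only and 17.3% on neither. In the main setting FABP5 was the 1 member past 2-fold. By comparison, 0.223% of named genes were measured on the R80C array only with a lower bound of at least 2-fold. Since FABP5 was known when the family was chosen, nothing is read from these counts.

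**Figure D1:**
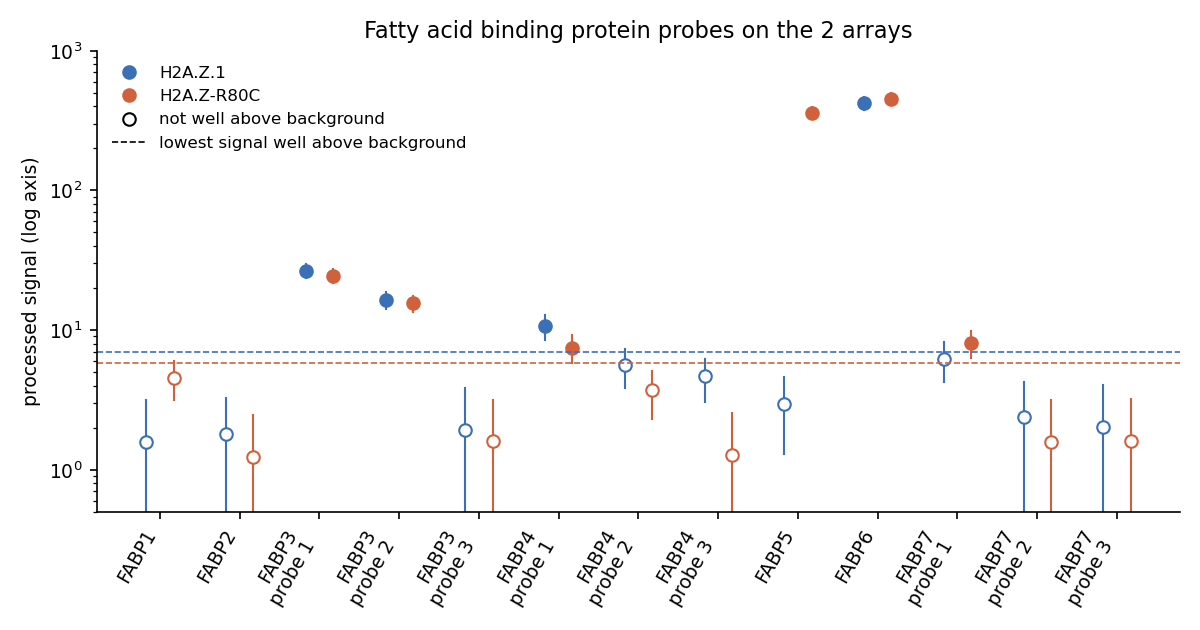
Processed signal (log axis) of each fatty acid binding protein probe on the H2A.Z.1 array (blue) and the R80C array (orange). Bars are the scanner software's error for 1 spot and run off the axis where they reach 0, open symbols were not well above background, and dashed lines mark the lowest signal well above background on each array. FABP5 goes from an open symbol at 2.97 to 360, while both FABP6 symbols lie between 421 and 455.

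FABP5, which in mammals carries fatty acids and retinoic acid to the nuclear receptor PPARD, was near background in H2A.Z.1 cells and clearly measured in R80C cells. Its only probe matched by RefSeq accession, A_87_P021795, read 2.97 ± 1.67 with H2A.Z.1 and 360 ± 36.0 with R80C. Here ± is the error that the scanner software estimates for 1 spot. The first value lay under the lowest signal well above background on its array, and the second was 62.0 times the lowest such signal on its own. Set against the detection limit of the H2A.Z.1 array, the signal in R80C cells was 52.9-fold higher, a lower bound of 5.73 on the log2 scale. A higher limit would give a smaller bound.

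Before any processing, the raw brightness of the FABP5 spot differed as well. This and the other readings below come from that same spot and are no separate support. The FABP5 spot read 34 against a local background of 30 on the H2A.Z.1 array, and 389.5 against 27 on the R80C array. In the authors' series matrix the spot stood at 4.5 and 545. The H2A.Z.1 signal passed the more lenient flag (positive and significant), and the plain ratio of both scaled signals was 124-fold. After normexp background correction with an offset of 50 together with quantile normalization, the bound was 6.92-fold.

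Among all probes, no bound or difference in either direction was larger than that of FABP5. Of 940 probes above background on the R80C array only, its bound ranked 1, and it was the only probe of these with at least 10-fold. It also ranked 1 of 5382 named genes under each of the 9 other settings tried, which all reuse the same spots. Because FABP5 was chosen from these signals, its rank is a description and no independent support. The value nevertheless rests on 1 spot per array. Around it, 23 non-control spots lay within 2 rows and 2 columns, of which 17 were above background on both arrays, with differences from -0.52 to 0.64 and a median of -0.047 (log2), and none was above background on 1 array only.

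**Figure D2:**
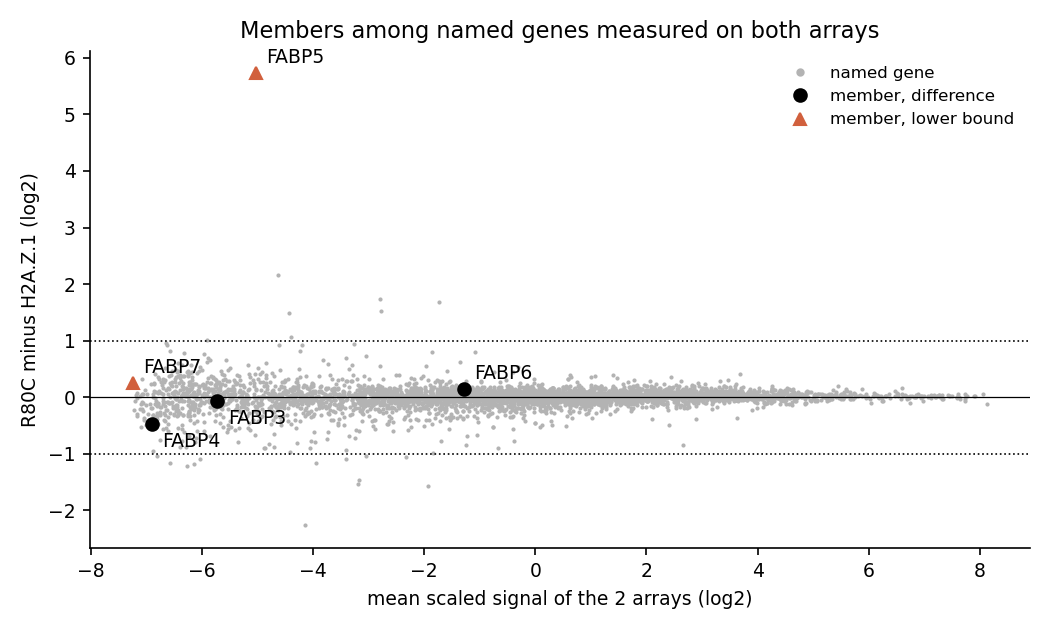
Difference R80C minus H2A.Z.1 (log2) against the mean scaled signal (log2) for the 4326 named genes measured on both arrays (grey) and for the members (black circles, differences; orange triangles, lower bounds). Dotted lines mark 2-fold. FABP5 stands at 5.73, and the other 4 members lie between -0.48 and 0.24.

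FABP4, which in mammals supplies fatty acids to PPARG in fat cells, was read by 3 dim probes. The brightest gave 10.6 ± 2.11 with H2A.Z.1 and 7.50 ± 1.67 with R80C, 1.39-fold lower in R80C cells (-0.48, log2). The error of that difference from the spot errors was 0.43, so the difference hardly exceeded it. The other probes read 5.59 and 4.66 in H2A.Z.1 cells, and 3.72 and 1.29 in R80C cells, not well above background on either array. The value of FABP4 thus rests on 1 measured probe, and 3.14% of genes measured on both arrays lay farther from 0. After normexp with quantile normalization the difference was -0.14.

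FABP3, the heart and muscle form in mammals, had nearly equal signals on the arrays. Its first probe gave 26.7 ± 3.13 with H2A.Z.1 and 24.6 ± 2.81 with R80C. Its second gave 16.5 ± 2.23 and 15.5 ± 2.00. Their mean difference was -0.071 (log2), and 51.2% of measured genes lay farther from 0. It was less than the software's estimated spot errors of 0.24 and 0.27 on the same scale. The third probe, at 1.91 and 1.59, was above background on neither array.

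FABP7, the form of radial glia and the developing brain, was at the detection limit. One of its 3 probes gave 6.20 ± 1.97 in H2A.Z.1 cells, not well above background, and 8.06 ± 1.75 in R80C cells, just above it. The lower bound was 1.18-fold, and the error ranges of the signals overlapped. The other probes were above background on neither array, at 2.38 and 2.04 in H2A.Z.1 cells and 1.58 and 1.62 in R80C cells. FABP7 therefore shared with FABP5 the state of being above background on the R80C array only, at a bound close to 1. The detection limits were unequal, 6.95 for H2A.Z.1 and 5.81 for R80C, and the FABP7 signal of 6.20 lay between them. How far the unequal limits account for this state was not tested.

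FABP6, the bile acid binding form of the ileum, was measured on both arrays with little difference. Its only matched probe read 421 ± 42.2 with H2A.Z.1 and 455 ± 45.5 with R80C, 1.10-fold higher (0.14, log2). That was below the spot error of 0.20 that the scanner software estimates, and 24.7% of measured genes lay farther from 0. The measured SD of differences between spots of 1 probe was smaller, 0.057 (log2, 42 probes printed more than once). Neither covers variation between cultures. The difference stayed between 0.12 and 0.18 in the other settings tried.

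FABP1 and FABP2, the liver and intestinal forms, were not well above background on either array. FABP1 read 1.59 ± 1.59 with H2A.Z.1 and 4.56 ± 1.41 with R80C, and FABP2 read 1.81 ± 1.47 and 1.23 ± 1.23. They are therefore given as signals only in the main setting. Among the 7 member probes that were above background on neither array, 6 had a lower scaled signal in R80C cells. Of all 12140 such probes on the arrays, 75.6% did, which is the same direction.

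The genes beside FABP5 were examined next. In the RefSeq gene order of chicken assembly GRCg7b, FABP5, FABP9 and FABP4 follow one another. The build of the array's grid is galGal3, so positions are not given. Within 10 genes on either side of FABP5, 8 named genes had probes. Of these, 6 were measured on both arrays, with differences between -0.48 (FABP4) and 0.086.

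The nearest gene on one side, MRPL53, a mitochondrial ribosomal protein gene, read 11927 with H2A.Z.1 and 12392 with R80C, a difference of 0.086 (log2). On the other side FABP9, another lipid binding protein of the family, read 1.75 ± 1.75 and 1.48 ± 1.47, above background on neither array. Farther out, SNX16, a sorting nexin, stood at -0.30, ZBTB10, a zinc finger gene, at -0.13, CHMP4C, a subunit of the ESCRT-III complex, at -0.072 and TPD52 at 0.0078. RALYL was above background on neither array. None of the 6 measured neighbours differed by 1.5-fold, and FABP5 between them had a bound of 52.9-fold. Only 1.94% of all genes measured on both arrays differed by 1.5-fold, so nothing is read from the absence among 6.

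**Figure D3:**
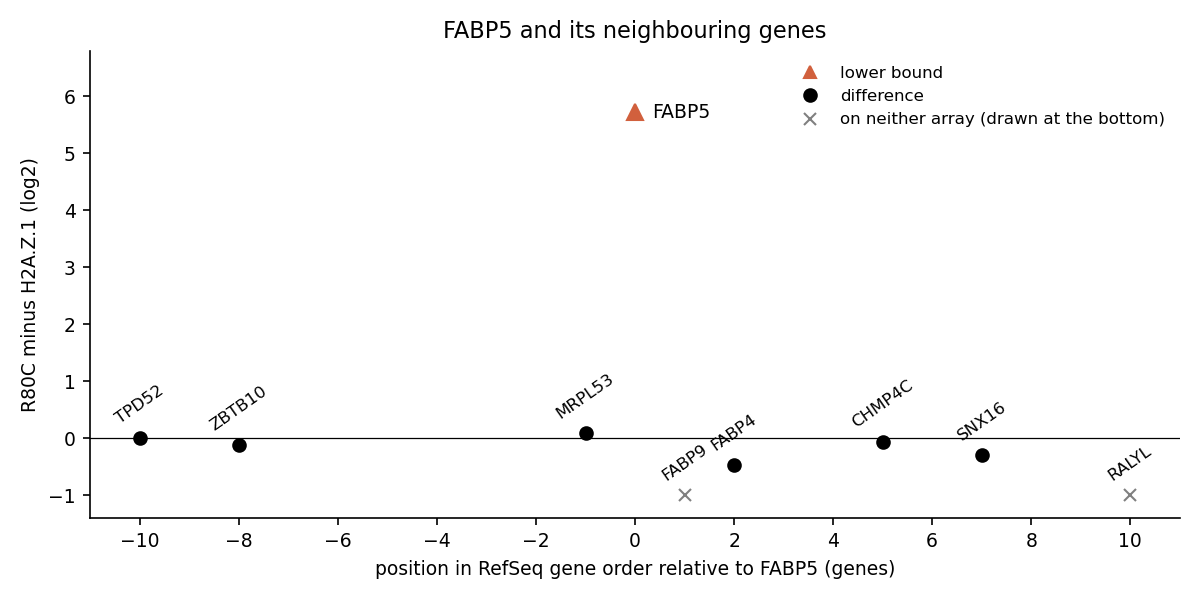
Difference R80C minus H2A.Z.1 (log2) for FABP5 (triangle, lower bound) and the named genes with probes within 10 positions in RefSeq gene order (circles). Crosses at the bottom are genes above background on neither array. The circles lie between -0.48 and 0.086, and FABP5 at 5.73.

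FABP4, whose neighbours include FABP5, shares with it all of these except TPD52. Around the other 5 members the differences were small. Named neighbours measured on both arrays numbered 4 for FABP1, 4 for FABP2, 5 for FABP3, 2 for FABP6 and 3 for FABP7, and none of them reached 1.5-fold. The lowest was LOC422926, beside FABP1, at -0.45, and the highest was ZCCHC17, next to FABP3, at 0.15. Over all genes measured on both arrays, 1.94% differed by at least 1.5-fold.

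The genes most like FABP5 were sought among those above background on the R80C array only, by the size of their lower bound. After FABP5, the largest bound was 4.21-fold for MAT1A, which makes S-adenosylmethionine and is a liver form in mammals. That bound rests on 1 of 3 probes (4.42 ± 1.61 with H2A.Z.1 and 28.6 ± 3.14 with R80C). With no filter on dim probes, the mean over all 3 probes was only 1.69-fold higher in R80C cells. HPGDS, a glutathione-dependent prostaglandin D synthase, followed with 3.62-fold (5.07 ± 1.96 and 24.7 ± 2.90), and COL20A1, a collagen gene, with 3.28-fold (5.89 ± 1.99 and 22.3 ± 2.73). Among genes with a symbol, the bound of FABP5 was thus 52.9-fold and the next 4.21-fold. Probes with no symbol here lay between them, at 8.74-fold and 4.38-fold.

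A further 6 genes had bounds between 2.05-fold and 2.87-fold. They were ANO3, of the anoctamin family of channels and scramblases, PPDPF, DRD4, a dopamine receptor gene, NRXN3, a neurexin of synapses, GFRA2, a neurturin receptor, and PDLIM3, a muscle Z-disc protein. The probes behind these bounds read between 13.9 and 20.6 in R80C cells. For DRD4 and NRXN3 the dim signals with H2A.Z.1 (7.80 and 9.01) exceeded the detection limit, so their bounds are plain ratios of the scaled signals. Each bound rests on 1 probe, of 2 for ANO3, GFRA2 and PDLIM3, of 3 for DRD4 and of 4 for NRXN3. After normexp with quantile normalization FABP5 was the only gene of this kind whose bound reached 2-fold, and MAT1A stood at 1.47-fold and HPGDS at 1.21-fold.

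**Figure D4:**
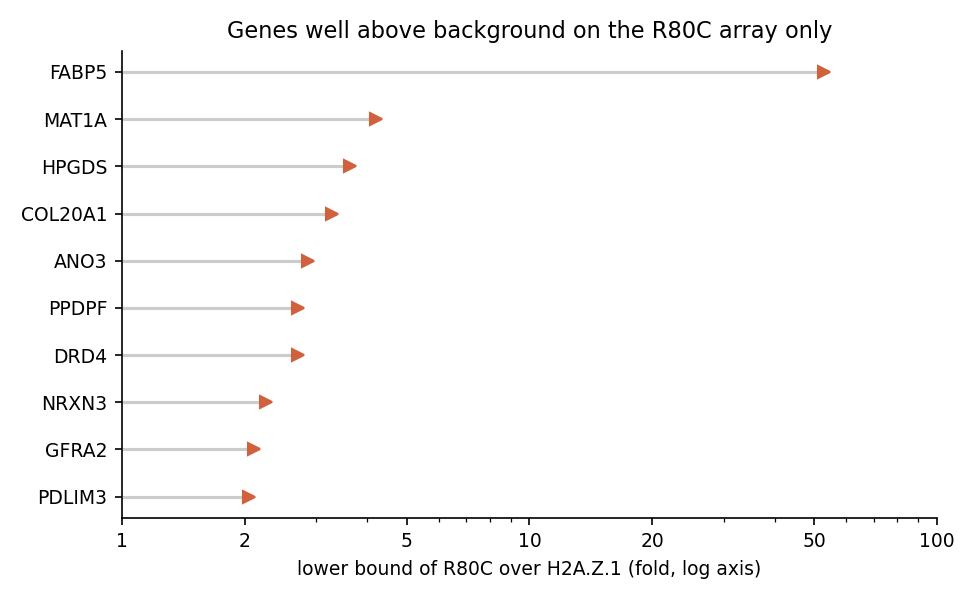
Lower bound of the ratio of R80C over H2A.Z.1 (fold, log axis) for 10 of the 12 named genes with the largest bounds among those well above background on the R80C array only. FABP5 stands at 52.9-fold, and the other 9 shown lie between 2.05-fold and 4.21-fold. For DRD4 and NRXN3 the bound is the plain ratio of the scaled signals.

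Other intracellular lipid binding proteins share the barrel fold of the family and carry retinoids, bile acids or other lipids. Of 5 examined with probes, 2 were measured on both arrays and 3 (FABP9, LBFABP and RBP5) on neither. Neither of the 2 differed by 2-fold. Over all genes measured on both arrays, 0.162% were at least 2-fold higher and 0.301% at least 2-fold lower in R80C cells.

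CRABP1, which binds retinoic acid in the cytoplasm, was lower in R80C cells at both of its probes. The brighter read 50.7 ± 5.26 with H2A.Z.1 and 26.7 ± 2.92 with R80C, 1.86-fold lower (-0.90, log2, with a spot error of 0.22). The dimmer read 11.1 ± 2.35 and 6.28 ± 1.88, and was measured in H2A.Z.1 cells only. Its bound of 1.73-fold is the plain ratio of the scaled signals, with a spot error of 0.53 (log2). Only 0.693% of measured genes lay farther from 0 than the difference at the brighter probe. The difference was -0.39 after normexp with quantile normalization. RBP2, the intestinal retinol binding form, was 1.27-fold higher in R80C cells, at 231 ± 23.2 and 287 ± 28.8 (0.34, with a spot error of 0.20).

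Among genes that bring fatty acids into cells and activate them, no measured difference reached 1.5-fold. Over all genes measured on both arrays 1.94% did, so nothing is read from this absence in a short list. Of 9 with probes, 7 were measured on both arrays, with a median of -0.070 beside 0.013 over all named genes measured on both. CAV1, a membrane scaffold protein of caveolae, had the largest difference at 0.29 on a dim signal (11.7 and 14.0). CD36, a fatty acid translocase, stood at 0.16 (77.0 and 84.2) at the 1 of its 3 probes that was measured. DBI, which binds acyl-CoA, stood at -0.10 (20128 and 18369). LPL, the lipase that releases fatty acids from lipoproteins, was above background on the R80C array only, with a bound of 1.24-fold. That bound rests on 1 of its 3 probes (9.29 ± 2.20 and 11.3 ± 2.00). Its other probes were above background on neither array and read lower in R80C cells (8.30 and 6.40, 1.48 and 1.24).

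The nuclear receptors that these proteins supply, and their partners, were partly measured. Of 11 with probes, 6 were measured on both arrays, with a median of -0.075, and 5 on neither. PPARD, the receptor that FABP5 supplies in mammals, read 588 with H2A.Z.1 and 500 with R80C over 2 probes, a 1.16-fold lower value with the mutant. PPARA, PPARG and the bile acid receptor gene NR1H4 were above background on neither array. RARA, a retinoic acid receptor, stood farthest from 0 at -0.41 (62.1 and 45.9, 1 probe), followed by the coactivator gene NCOA1 at -0.28 (2959 and 2343, 2 probes). None differed by 1.5-fold, beside 1.94% of all genes measured on both arrays.

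Fatty acid oxidation genes and PPAR targets were close to 0 as a group. Of 15 with probes, 14 were measured on both arrays, 8 of them above 0, with a median of 0.025. None was at 1.5-fold, beside 1.94% of all genes measured on both arrays. CPT1A, which starts the entry of long-chain fatty acids into mitochondria, was lowest at -0.27 over 2 probes (121 and 97.9). CAT, the catalase of peroxisomes, was highest at 0.21 (15.7 and 17.8). PLIN2, a coat protein of lipid droplets and a PPAR target in mammals, stood at 0.070 (3147 and 3258), and PDK4 was above background on neither array.

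Genes of lipid storage and breakdown (6 measured on both arrays of 6 with probes) had a median of 0.011. PNPLA2, the first lipase of stored fat, stood at -0.40 on dim signals (17.3 and 13.1, 3 probes), and MGLL, the lipase of monoacylglycerols, at 0.13. Of 10 eicosanoid genes with probes, 4 were measured on both arrays, with a median of 0.026. HPGDS was the 1 gene of this list with a bound past 2-fold on the R80C array only, as described above. Over all named genes, 0.223% had such a bound. ALOX5AP, which presents arachidonic acid to lipoxygenase, stood at -0.14, and PTGES3 at 0.079. Of 9 bile acid and lipoprotein genes with probes, 5 were measured on both arrays, with a median of 0.090, between CYP8B1 at -0.078 and LCAT at 0.097.

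**Figure D5:**
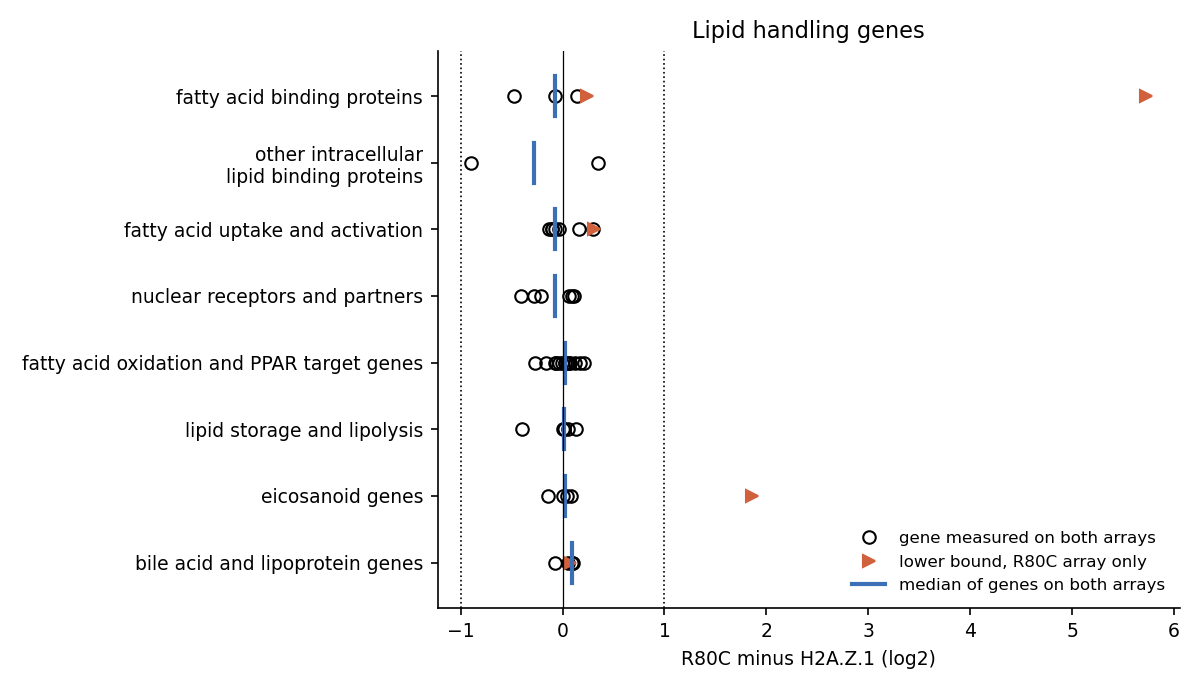
Difference R80C minus H2A.Z.1 (log2) for lipid handling genes by list, with open circles for genes measured on both arrays, triangles for lower bounds of genes above background on the R80C array only, and blue bars for the median of the circles. Dotted lines mark 2-fold. Past them lie only the triangles of FABP5 at 5.73 and HPGDS at 1.86.

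Markers of cell types known in mammals for these proteins were read beside them. Epidermal markers, for FABP5, had 4 genes with probes. KRT5 (18.1 with H2A.Z.1 and 19.4 with R80C) and TP63 (29.0 and 28.8) were measured on both arrays, with differences of 0.12 and -0.00029, and KRT14 and EPCAM on neither. Adipocyte markers had 6 genes with probes, of which 4 were measured on both arrays. Among them CEBPA, a transcription factor of fat cells and myeloid cells, stood highest at 0.53 (13.7 and 19.3), and ADIPOQ, the adiponectin gene, stood at -0.016 (39.7 and 38.4).

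Of 5 macrophage marker genes with probes, CTSS stood at -0.29 and TLR4 at -0.079, LY86 was above background on the R80C array only with no bound above 1, and MARCO and CD14 were above background on neither array. For hepatocyte markers 3 of 6 genes with probes were measured on both arrays, for enterocyte markers 2 of 4, and for heart and skeletal muscle markers 4 of 6, with differences between -0.31 (TNNC1) and 0.29 (ALB). Muscle light chain gene MYL2 was above background on the H2A.Z.1 array only, with a bound of 1.42-fold. Of 2 neural and glial genes examined, OLIG2 stood at 0.080 and SOX2 had no bound above 1. No marker named here differed by 2-fold or had such a bound. Over all genes measured on both arrays, 0.162% were at least 2-fold higher and 0.301% at least 2-fold lower in R80C cells. Of all named genes, 0.223% had such a bound higher in R80C cells and 0.0929% lower.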

How the data were processed

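Total RNA (100 ng) of 2 DT40 cultures was Cy3-labelled and run on Agilent 1-colour arrays, per the labels' protocols, with 1 array per group. The deposited files give linear spot intensity and 0 or 1 flags per spot, made with Agilent Feature Extraction 11.5.1.1, per the file headers. This intensity had been background-subtracted and detrended, with no normalization between arrays. The series matrix deposited by the authors was 1.50 and 1.51 times the processed intensity, with column medians of 129.9 and 125.1, and how the factors were chosen is unknown.

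Signals were scaled as log2 of the processed signal minus log2 of the array's 75th percentile. A probe was measured where well above background on both arrays, and measured probes were averaged per gene. Where 1 array was dim, the lower bound sets the bright signal against whichever is higher of the dim probe itself and the lowest signal well above background there. With several such probes the largest bound was kept. Where the dim probe itself was the higher, as for CRABP1, LPL, MYL2, DRD4 and NRXN3, the bound is the plain ratio of the scaled signals. Of 13060 probes with a RefSeq accession, 11935 matched a symbol of assembly GRCg7b. List genes were matched by exact symbol.

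With 1 array per group no test was run, and this number limits the precision. The scaling was tested on simulated data, with known changes placed on bright spots. Members, lists and the naming rule were chosen with earlier results of these data known. The rule took all members and other lipid binding proteins, list genes past 2-fold or else the 2 farthest from 0, neighbours within 10 genes, and the 12 largest bounds above background on the same array as FABP5. A few genes that the rule or the lists took are not reported here. Other list genes in the text were chosen after their values were seen. Alternatives were the array median, quantile, loess, spike-in scaling, the series matrix, normexp (offset 50) followed by quantile normalization, a lenient flag, no filter on dim probes, and the brightest probe. R 4.3.3 with limma 3.58.1 and Python 3.11.15 were used.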

Additional observations from a re-analysis of the deposited data

How the results depend on the processing

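Values were compared with the main ones by the SD between probes of 1 gene, 0.094 (log2), since no replicates exist. Values are log2 differences or bounds. FABP3 and FABP6 moved by less than that under all 9 alternatives, and FABP4, FABP5 and FABP7 under all but those named here. With normexp and quantile normalization FABP5 stood at 2.79, FABP4 at -0.14 and FABP7 at 0.018. With the positive-and-significant flag FABP5 stood at 6.95 and FABP7 at 0.41. Under that flag 6 members in place of 3 were measured on the H2A.Z.1 array, and 6 in place of 5 on the R80C array. With no filter on dim probes FABP5 stood at 6.95, FABP4 at -0.95, and FABP7 turned to -0.15. FABP1 and FABP2 had no main value. With the flag, and also with no filter, FABP1 stood at 1.55, past 2-fold, and FABP2 at -0.52. Named genes on both arrays at least 2-fold higher numbered 7 (3 with normexp and quantile normalization, 43 with the flag, 52 with no filter), and 13 were at least 2-fold lower (2, 37 and 45). Genes with a bound of at least 2-fold on the R80C array only numbered 12 (1 with normexp and quantile normalization, 37 with the flag), and on the H2A.Z.1 array only 5 (0 and 24). The cause of these shifts was not tested. No paired analysis was possible because each group had 1 array. Signals near the detection limit had spot errors of 31.2% to 99.9% of the signal on the H2A.Z.1 array among members above background on neither array, which limits FABP1, FABP2, FABP7 and the dim probes of FABP3 and FABP4.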

Other observations

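Beyond the named genes, few probes approached the difference of FABP5. Among all 43603 probes, 940 were above background on the R80C array only and 324 on the H2A.Z.1 array only. At least 10-fold, the former held the FABP5 probe alone and the latter 3 probes, none of them matched to a symbol. Of probes measured on both arrays, 2 were at least 10-fold lower in R80C cells and 0 at least 10-fold higher. The second largest bound on the R80C array only, 8.74-fold, also belonged to a probe with no symbol here (6.95 ± 1.83 with H2A.Z.1 and 59.5 ± 6.11 with R80C).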
